A study of Mus musculus with 90 samples.

Results

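The genes described here are those of fatty acid synthesis, chosen by symbol: Srebf1, Fasn, Acaca, Acacb, Acly, Scd1, Elovl6, Pnpla3, Mlxipl and Gpam. Of these 10 genes, 8 had a probe in the deposited table, and their 9 probes were among 25697 on the array, which named 16593 genes. Acacb, which makes the malonyl-CoA that restrains mitochondrial fatty acid entry, and Pnpla3, a lipid droplet protein, were not analysed here. Srebf1 had a pair of probes, and the probe ILMN_2696876 was detected on 1 of 18 liver arrays and was tested in no tissue, so ILMN_2792089 stands for the gene throughout.

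Balb/c mice received the alpha-emitting radionuclide 211At (astatine) by vein, and total RNA of liver, lung, spleen and 2 parts of the kidney (cortex and medulla) was measured 24 h later on single-colour bead arrays. Every tissue had groups injected with 0, 0.064, 0.64, 1.8, 14 and 42 kBq and 3 arrays per group, 90 arrays in 30 groups. All groups were of 1 strain, and no other treatment or allele is named in the labels. Nothing states whether the 3 arrays of a group came from separate mice, so that p-values reflect only how far these arrays vary, which may be technical variation. Levels are log2 intensities, differences are log2 differences, and a gene was called, and is said to have risen or fallen, at a Benjamini-Hochberg adjusted p under 0.05 from limma over all probes tested. Each share of all probes called counts rises and falls together.

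Fatty acid synthesis turns surplus carbohydrate into lipid, and in the liver it is switched on by feeding and off by fasting. Srebf1 encodes SREBP-1, a membrane-bound transcription factor that insulin induces, and Mlxipl encodes ChREBP, a transcription factor that responds to glucose metabolites. Acly supplies cytosolic acetyl-CoA, Acaca carboxylates it to malonyl-CoA, Fasn builds palmitate, Elovl6 lengthens it to stearate, Scd1 desaturates the products, and Gpam starts their esterification into glycerolipids. Fat tissue runs the same pathway at a high rate, so fat cell genes are given beside the members below.

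The arrays fell into 2 sets, whose deposited values lay on different numerical grids: 60 arrays of 0, 1.8, 14 and 42 kBq (set 1) and 30 arrays of 0.064 and 0.64 kBq (set 2). Between 11229 and 14456 probes were detected on each array. Each activity is therefore compared within its set, and 1.8, 14 and 42 kBq share the same 0 kBq arrays. Every comparison is given first from 1 fit over all 18 arrays of the tissue and then from a fit within the array set (12 arrays for set 1). The first shares 1 estimate of the spread over all groups of the tissue, though groups differed in spread. In kidney cortex the SD of Scd1 (n = 3) was 0.07 to 0.18 in the set 1 groups, 2.99 at 0.064 kBq and 1.12 at 0.64 kBq. For Gpam it was 0.23 to 0.49 in set 1, 0.63 at 0.064 kBq and 0.31 at 0.64 kBq. Whether the arrays of a set 1 group share RNA was not tested. Some set 2 arrays stood apart: the mean of 10 fat cell genes was 8.74 on 1 lung array of 0.64 kBq and 9.21 on 1 kidney cortex array of 0.064 kBq, against at most 6.21 on any set 1 lung array and 5.48 on any set 1 cortex array. The labelled tissues carried their own markers, with the mean of 10 hepatocyte genes at 11.32 to 12.07 on liver arrays and 5.61 to 5.64 in control spleen. In their own tissues, means were 12.95 to 13.17 for alveolar type 2 cell genes in lung, 9.09 to 10.12 for B cell genes in spleen, 10.72 to 11.35 for proximal tubule genes in cortex and 10.95 to 11.29 for collecting duct and loop genes in medulla. The kidney lists separated the 2 parts little, with collecting duct and loop genes at 10.65 to 11.24 in cortex and proximal tubule genes at 10.09 to 10.70 in medulla.

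In the 0 kBq mice the 8 genes were higher in liver than in the mean of the other tissues, from 0.59 for Acly to 3.37 for Mlxipl, and all 8 passed the test over the 90 arrays normalised together. Of 19538 probes 57% passed in either direction, 4660 of them higher in liver. Srebf1 stood at 9.70 ± 0.04 in liver, 7.12 ± 0.32 in kidney cortex, 6.86 ± 0.26 in kidney medulla, 6.80 ± 0.07 in lung and 5.98 ± 0.12 in spleen (SD, n = 3). The cortex, medulla and lung values of Srebf1 overlapped. Mlxipl split the tissues differently, with 10.94 ± 0.11 in liver, 10.33 ± 0.14 in cortex and 9.74 ± 0.13 in medulla, but 5.27 ± 0.14 in lung and 4.97 ± 0.22 in spleen (SD, n = 3), where its values overlapped. Elovl6 stood at 10.65 ± 0.15 in medulla and 10.53 ± 0.04 in liver (SD, n = 3), and the arrays of these tissues overlapped. Scd1 was 13.99 ± 0.01 in liver and 9.92 ± 0.12 in cortex (SD, n = 3), with lung, medulla and spleen between them and lung and medulla overlapping. Fasn was 7.64 ± 0.17 in liver (SD, n = 3) and was not well above background on any control array of spleen or medulla, so that its difference from those tissues is only a bound.

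**Figure D1:**
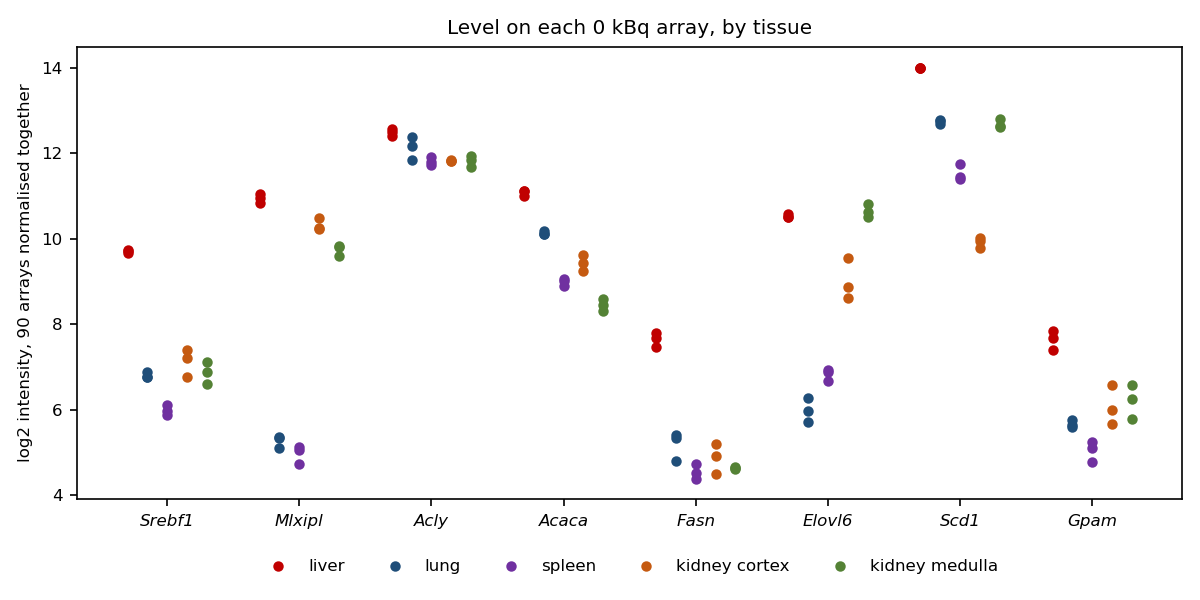
Level of each gene on the 3 arrays of 0 kBq in 5 tissues, as log2 intensity (vertical axis) after normalisation of the 90 arrays together; each point is 1 array. Liver lies above the other tissues for Srebf1 and Mlxipl, at 9.70 and 10.94 on average, while medulla reaches the liver level for Elovl6.

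In liver at 1.8 kBq Srebf1, Fasn and Elovl6 fell, and none of the 8 genes rose. These 3 genes are a transcription factor of the pathway, the synthase and the elongase. They compare with 3.92% of all liver probes called in either direction at that activity, where 266 of 13673 probes fell. In the fit within set 1 the same 3 genes and Acly and Mlxipl fell, and Scd1 rose, 6 of 8 genes against 14.7% of all probes. The median change of the 8 genes was -0.33, and that of all probes -0.02. In bulk tissue, fewer cells of a type and less RNA per cell cannot be told apart.

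Srebf1 was 9.35, 9.26 and 9.32 on the control liver arrays and 8.04, 7.75 and 7.97 at 1.8 kBq. The highest array at 1.8 kBq lay more than a full log2 unit below the lowest control array. The difference was -1.39 ± 0.17 (SE), or 2.62-fold (adjusted p = 3.61e-05), and -1.40 within set 1 (adjusted p = 1.66e-09). Mlxipl, the other transcription factor, was 10.67, 10.92 and 10.80 in controls and 10.42, 10.58 and 10.35 at 1.8 kBq. Its groups did not overlap, and its change of -0.35 did not pass over all 18 arrays (adjusted p = 0.0835) but did within set 1 (-0.36, adjusted p = 0.00703).

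Fasn was 6.86, 7.20 and 7.09 in control liver and 6.14, 6.09 and 6.06 at 1.8 kBq. All arrays at 1.8 kBq lay below all control arrays, a difference of -0.95 ± 0.22 (SE), or 1.93-fold (adjusted p = 0.0162). Elovl6 was 10.29, 10.27 and 10.36 in controls and 9.79, 9.80 and 9.86 at 1.8 kBq. The groups did not overlap. The difference was -0.49 ± 0.12 (SE) over all 18 arrays (adjusted p = 0.031) and -0.50, or 1.41-fold, within set 1 (adjusted p = 0.000236). With 1 of the 6 arrays left out, Elovl6 lost its call whichever array it was, and Fasn lost it without array 2 or 3 of either group, while Srebf1 kept it each time. Centring the arrays on their medians in place of quantile normalisation moved the median of all probes at 1.8 kBq from -0.02 to -0.22, with Srebf1 then at -1.74 (adjusted p = 0.00172), Fasn at -1.16 (adjusted p = 0.0128) and Elovl6 at -0.81 (adjusted p = 0.0563). The same centring put Mlxipl at -0.68, Acly at -0.55 and Scd1 at 0.09. In the deposited processed table the changes were smaller, -1.05 for Srebf1, -0.53 for Fasn (adjusted p = 0.0204) and -0.37 for Elovl6.

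Acly was 12.63, 12.71 and 12.54 in control liver and 12.32, 12.33 and 12.30 at 1.8 kBq. The groups did not overlap, and the change of -0.31 ± 0.09 (SE) had adjusted p = 0.0506 over all 18 arrays and 0.00529 within set 1. Scd1 moved the other way, from 14.09, 14.10 and 14.09 to 14.39, 14.31 and 14.26. This difference of 0.23 did not pass over all 18 arrays (adjusted p = 0.671), with a standard error of 0.23 against 0.07 within set 1, and passed within set 1 (0.24, adjusted p = 0.0255). Acaca and Gpam overlapped the controls, with differences of 0.08 and -0.10.

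The promoters of the 3 genes that fell in liver at 1.8 kBq follow, to set their letters beside their shared direction. RefSeq promoter sequences (build GRCm38.p6) matched 9 of the 10 genes by symbol, in 13 windows of 250 bases before a transcription start, and Scd1 had no entry. Srebf1, Fasn, Acaca and Acly lie on chromosome 11, Scd1 and Gpam on 19, Mlxipl on 5 and Elovl6 on 3 of that build. Srebf1 has 3 starts in that table. The third is shown because its window holds the most matches, 5, while the other windows hold 1 and 2 and neither TCACNC nor CATGTG; which start the liver used was not measured. The strings below run 5′ to 3′ up to the base before the start, and capitals mark matches to the motifs searched on both strands, which were TCACNC (the core of the sterol regulatory element that SREBP binds), TCACNCCAC (which contains that core), CACGTG and CATGTG (E-boxes), CCAAT (the CCAAT box) and GGGCGG (the GC box).
Srebf1, chr11:60210472-60210721, minus strand: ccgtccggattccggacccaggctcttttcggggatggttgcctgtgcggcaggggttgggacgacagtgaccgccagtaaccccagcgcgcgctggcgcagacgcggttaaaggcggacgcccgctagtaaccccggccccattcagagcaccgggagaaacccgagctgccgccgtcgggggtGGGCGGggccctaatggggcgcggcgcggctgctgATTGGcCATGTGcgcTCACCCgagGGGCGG
Fasn, chr11:120824548-120824797, minus strand: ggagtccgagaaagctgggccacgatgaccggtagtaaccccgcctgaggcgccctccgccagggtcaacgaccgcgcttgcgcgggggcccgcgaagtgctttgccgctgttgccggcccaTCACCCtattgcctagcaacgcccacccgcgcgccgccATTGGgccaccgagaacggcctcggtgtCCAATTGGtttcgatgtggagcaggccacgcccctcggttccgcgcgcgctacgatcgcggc
Elovl6, chr3:129532136-129532385, plus strand: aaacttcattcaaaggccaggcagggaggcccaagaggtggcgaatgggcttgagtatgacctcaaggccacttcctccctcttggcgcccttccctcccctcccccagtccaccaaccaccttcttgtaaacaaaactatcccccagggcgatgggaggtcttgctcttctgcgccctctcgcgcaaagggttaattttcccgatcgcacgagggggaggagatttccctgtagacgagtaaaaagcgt
In the Srebf1 window the CATGTG match lay 24 to 19 bases before the start and the TCACNC match 15 to 10 bases before it. The Fasn window held TCACNC from 128 bases before the start and 3 CCAAT matches, of which 2 overlap on opposite strands. The Elovl6 window held no match, which says only that these letters are not in this window. TCACNC was found in 7 of the 13 windows of the 9 genes and in 37.6% of 32851 promoter windows, and CCAAT in 7 of 13 and in 33.8%. The windows with TCACNC included each Gpam window, and Gpam was not called in liver at 1.8 kBq in either fit. GGGCGG was found in 6 of 13 and in 32.7%, CATGTG in 2 of 13 and in 12.3%, CACGTG in 1 of 13 and in 6.02%, and TCACNCCAC in 1 of 13, a Mlxipl window, and in 1.05% of all. A match is a description of letters and not a bound site.

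At 14 kBq none of the 8 genes passed the limma test in liver over all 18 arrays (1 had an unadjusted p under 0.05, and 1.3% of all probes were called). Within set 1, where 7.94% of all probes were called, Srebf1 and Scd1 fell. Srebf1 was 8.92, 8.46 and 8.71, each below the control arrays and above the arrays of 1.8 kBq. Its difference from controls was -0.61 ± 0.17 (SE) over all 18 arrays (adjusted p = 0.0827) and -0.62 within set 1 (adjusted p = 0.000512). Scd1 was 13.72, 13.80 and 13.87, all below the controls, a difference of -0.31 within set 1 (adjusted p = 0.0072). Fasn, at 6.63, 6.67 and 6.79, lay between the controls and 1.8 kBq (adjusted p = 0.583). Elovl6 differed from controls by 0.16, Acly by -0.07 and Mlxipl by -0.03, none of them called in either fit.

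At 42 kBq 1 of the 8 genes, Srebf1, passed in liver over all 18 arrays, against 3.53% of all probes. Its values were 8.49, 8.47 and 8.39, all below the controls, a difference of -0.86 ± 0.17 (SE), or 1.81-fold (adjusted p = 0.00496; 0.164 with median centring). Within set 1, where 12.5% of all probes were called, Mlxipl and Fasn also fell, by 0.36 (adjusted p = 0.00684) and 0.45 (adjusted p = 0.0458), and Fasn differed by -0.27 in the deposited processed table. Elovl6 rose there by 0.28 (adjusted p = 0.0336), with 10.46, 10.68 and 10.60 at 42 kBq, all above the controls. Acly, Acaca and Gpam overlapped the controls, with differences of 0.08, 0.11 and 0.08.

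**Figure D2:**
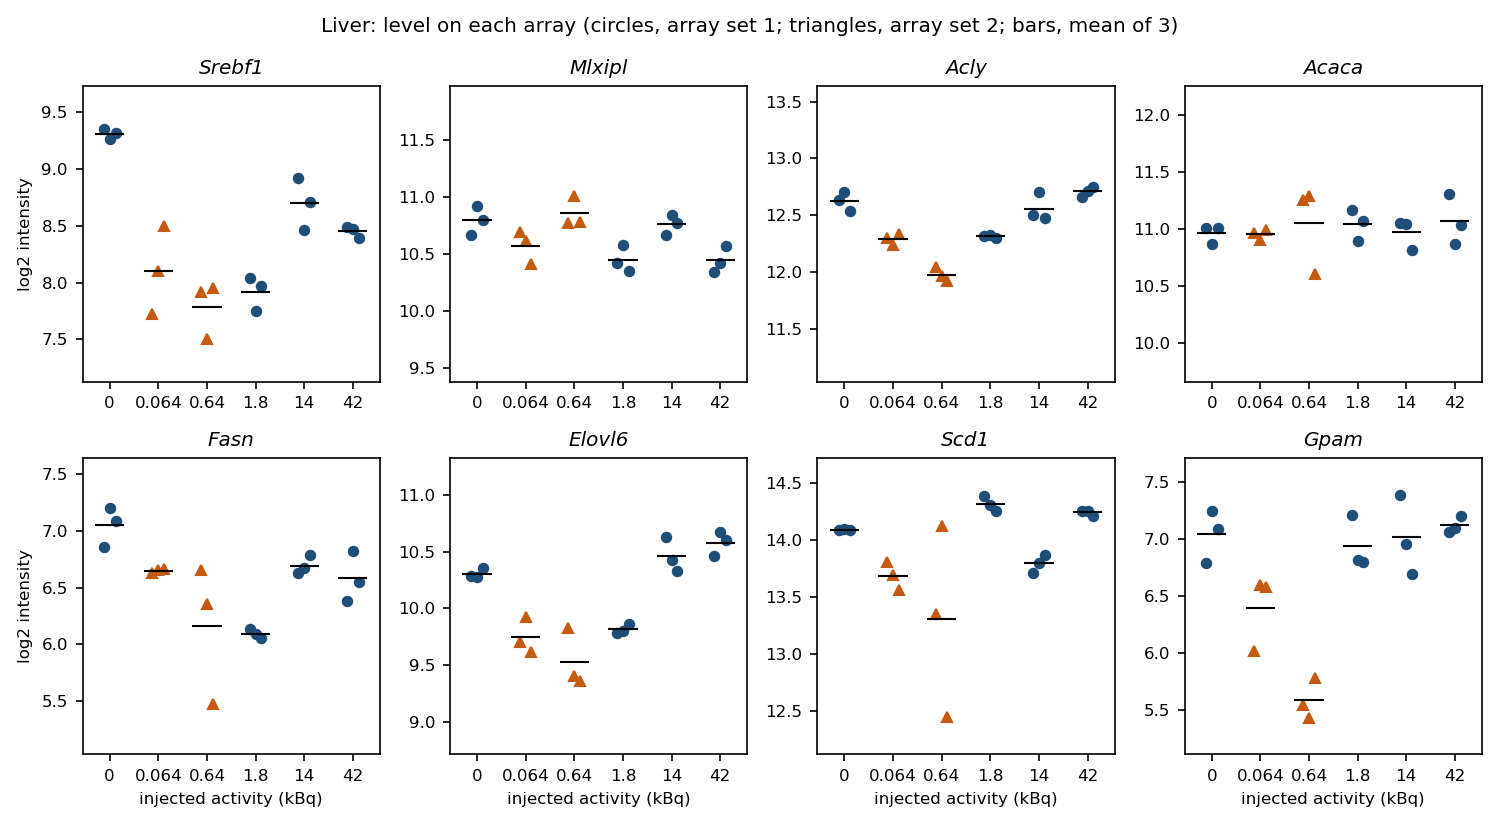
Log2 intensity of each gene on each liver array (vertical axes, the same span in every panel) by injected activity (horizontal axes); circles are arrays of set 1, triangles arrays of set 2, and bars the mean of 3 arrays. Srebf1 lies at 9.26 to 9.35 in controls and lower at 1.8, 14 and 42 kBq, while Elovl6 lies below the controls at 1.8 kBq, overlaps them at 14 kBq and lies above them at 42 kBq.

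The liver activities also differed from each other. Elovl6 was higher at 14 than at 1.8 kBq by 0.65 ± 0.12 (SE) (adjusted p = 0.00355) and Srebf1 by 0.78 ± 0.17 (SE) (adjusted p = 0.00836), 2 of 8 genes against 5.9% of all probes. Within set 1, 6 of 8 genes differed between these activities, against 18.2% of all probes: Srebf1, Mlxipl, Acly, Fasn and Elovl6 were higher at 14 kBq and Scd1 was lower. At 42 kBq Elovl6 was higher than at 1.8 kBq by 0.76 (adjusted p = 0.0009) and Acly by 0.39 (adjusted p = 0.0109), against 4.46% of all probes. Within set 1, where 14.7% were called, Srebf1 and Fasn were also higher, by 0.53 and 0.47. Between 42 and 14 kBq no gene passed over all 18 arrays in limma (1 had an unadjusted p under 0.05, and 0.453% of probes were called). Within set 1, with 3.69% called, Scd1 was higher by 0.47 and Mlxipl lower by 0.33 at 42 kBq. With median centring, 14 kBq differed from 1.8 kBq by 1.06 for Elovl6, 1.17 for Srebf1, 0.73 for Mlxipl, 0.58 for Acly and -0.32 for Scd1, 42 kBq from 1.8 kBq by 0.61 for Acly, and 42 kBq from 14 kBq by -0.49 for Mlxipl. In the deposited processed table Fasn was higher than at 1.8 kBq by 0.32 at 14 kBq and 0.26 at 42 kBq. The lowest liver values of Srebf1, Fasn, Elovl6 and Acly in set 1 thus all lay at 1.8 kBq and not at the highest activity.

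Between 0.64 and 0.064 kBq, Gpam and Acly fell in liver over all 18 arrays, 2 of 8 genes against 4.96% of all probes. Gpam was 5.54, 5.43 and 5.78 at 0.64 kBq and 6.02, 6.60 and 6.58 at 0.064 kBq, without overlap, a difference of -0.81 ± 0.20 (SE) (adjusted p = 0.0265) and of -0.47 in the deposited processed table. Acly was 12.05, 11.97 and 11.92 against 12.30, 12.24 and 12.34, a difference of -0.31 (adjusted p = 0.0437). Within set 2 limma called no gene (2 had an unadjusted p under 0.05, and 0% of all probes were called, with 4 residual degrees of freedom). The median standard error of all probes was 0.23 within set 2 and 0.19 over all 18 arrays. The calls of Gpam and Acly thus rest on a spread shared with the set 1 arrays and did not hold with that of set 2 alone. Scd1 had the widest spread, 13.35, 14.12 and 12.45 at 0.64 kBq. The array with 12.45 also had the lowest Fasn, 5.47, and the lowest Acaca, 10.60, of the 18 liver arrays.

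The mean of 8 genes of hepatic macrophages and leukocytes was 7.31 to 7.48 in controls, 7.55 to 7.60 at 1.8 kBq, 7.12 to 7.17 at 14 kBq and 7.39 to 7.55 at 42 kBq. Hepatocyte genes were at 11.4 to 11.6 in controls and at 11.5 to 11.6 at 1.8 kBq, with 8 of 10 detected there. Cps1, a urea cycle enzyme of hepatocytes, fell by 0.41 at 1.8 kBq. The exocrine pancreas mean was 5.25 to 5.32 in controls and 5.38 to 5.42 at 1.8 kBq, where 1 of its genes, the amylase Amy2a5, rose by 1.17. Cela1, a pancreatic elastase, fell by 0.88 at 42 kBq. The macrophage genes Marco and Clec4f rose by 1.41 and 0.72 between 0.064 and 0.64 kBq over all 18 arrays, while no probe was called within set 2. Of 10 fat cell genes 1 or 2 were detected on any liver array, with means of 5.04 to 5.51. The part of leukocyte or pancreatic RNA in the changes was not tested.

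Other genes of lipid synthesis in liver were counted in the same fit. Of 21 tested genes in a list of other lipogenic enzymes, 5 fell and 0 rose at 1.8 kBq, where 3.92% of all probes were called. Within set 1, 8 fell, against 14.7% of all probes called. The median change of the 21 genes was -0.21, and that of all probes -0.02. Aacs, which activates acetoacetate for lipid synthesis, fell by 1.23, or 2.34-fold (adjusted p = 0.00166). Thrsp, a lipogenic protein induced by thyroid hormone, fell by 1.19, Me1, malic enzyme and a source of NADPH, by 0.83, and Mid1ip1, which activates acetyl-CoA carboxylase, by 0.77. Dgat2, the last enzyme of triglyceride synthesis and the fifth of these genes, fell by 0.54. Of the same 21 genes 2 were called at 14 kBq and 3 at 42 kBq, against 1.3% and 3.53% of all probes. Those that rose were the phosphatidate phosphatases Lpin2, by 0.73 at 14 kBq and 1.06 at 42 kBq, and Lpin1, by 1.59 or 3.02-fold at 42 kBq (adjusted p = 0.000311). The gene that fell at both was Mid1ip1, by 0.60 and 0.68. Aacs and Thrsp differed from controls by -0.64 and 0.25 at 42 kBq and were not called over all 18 arrays, while within set 1 Aacs was called at 14 kBq (-0.77, adjusted p = 1.16e-06) and at 42 kBq (-0.65, adjusted p = 8.19e-06). Between 0.064 and 0.64 kBq 4 of the 21 genes fell and 2 rose over all 18 arrays, against 4.96% of all probes called. They were led by Acsl3, which activates fatty acids, at -1.30, Lpin1 at 0.84, Lpin2 at 0.83 and Agpat2, an acyltransferase of glycerolipid synthesis, at -0.80. None of these genes was called within set 2, where no probe was.

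Among 18 tested regulators of lipogenesis, 2 rose and 0 fell at 1.8 kBq, against 3.92% of all probes called. Irs2, the insulin receptor substrate that liver induces in fasting, rose by 1.49, or 2.81-fold (adjusted p = 5.83e-05), and Bhlhe40, a transcriptional repressor of the clock, by 0.59. Irs2 also rose at 14 kBq, by 0.91 (adjusted p = 0.0138), and at 42 kBq, by 0.93 (adjusted p = 0.00598). Insig2, which retains SREBP in the endoplasmic reticulum, fell by 0.48 at 14 kBq and by 0.76 at 42 kBq (adjusted p = 0.000116). Nr1h3, which encodes LXR alpha, an inducer of Srebf1, differed by -0.46 at 1.8 kBq (adjusted p = 0.106 over all 18 arrays and 0.000739 within set 1). Srebf2, the related factor of sterol synthesis, differed by 0.13 at 1.8 kBq (adjusted p = 0.847).

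**Figure D3:**
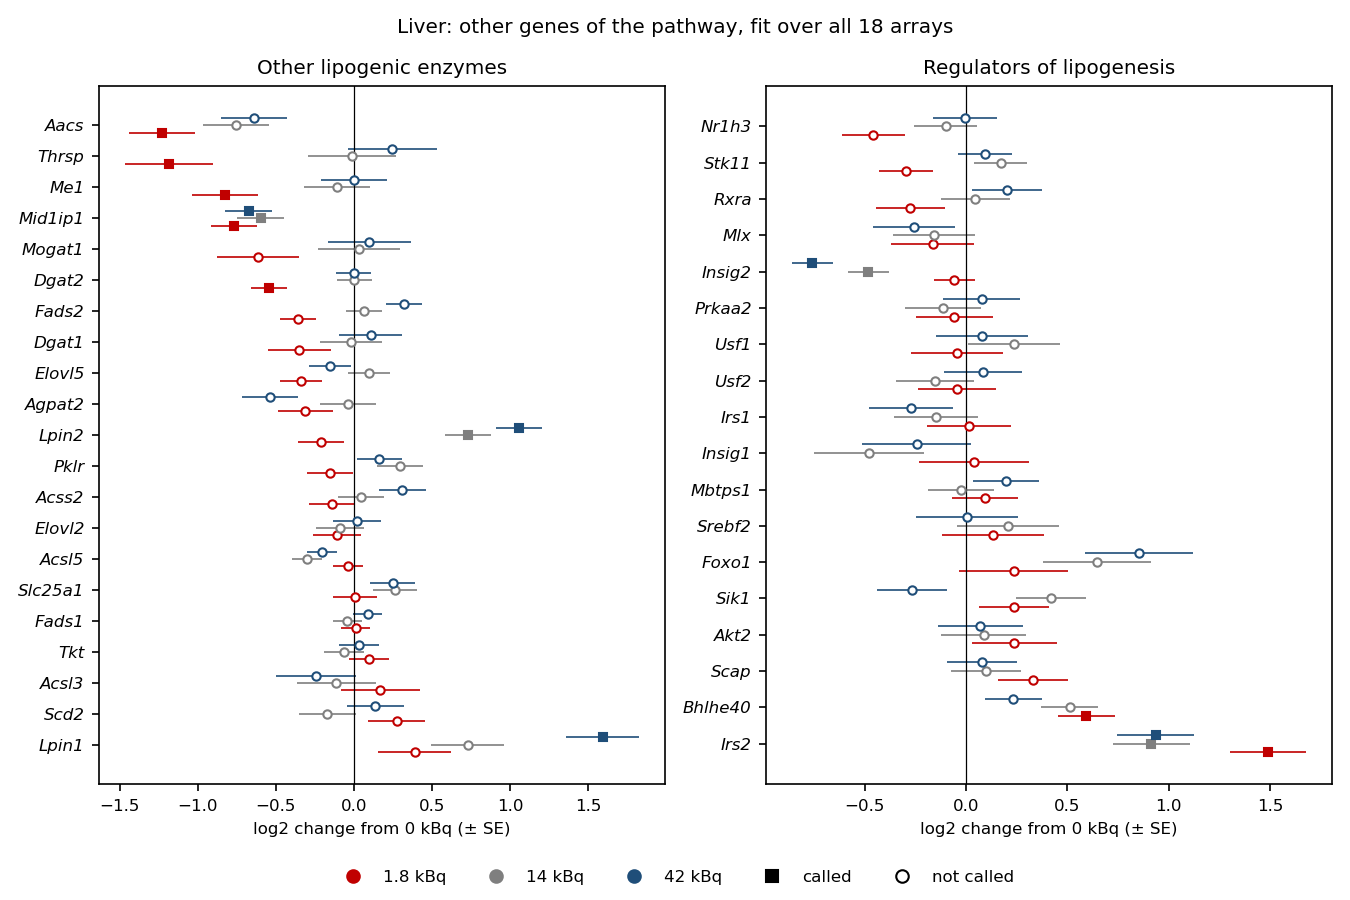
Log2 change from 0 kBq in liver (horizontal axes, with SE) of the tested genes of 2 lists, the other lipogenic enzymes and the regulators, at 1.8, 14 and 42 kBq; squares are called genes and open circles are not called. At 1.8 kBq Aacs, Thrsp, Me1, Mid1ip1 and Dgat2 lie to the left of 0 as called genes, and Irs2 lies to the right at all 3 activities.

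Of 13 tested cholesterol synthesis genes, 2 rose and 0 fell at 1.8 kBq over all 18 arrays, against 3.92% of all probes called. These were Nsdhl, by 1.39, and Lss, by 0.89, both enzymes of the sterol pathway, and the median of the 13 was 0.28. At 42 kBq Sc5d fell by 0.79 over all 18 arrays, against 3.53% of all probes called, while 7 rose and 1 fell within set 1, against 12.5%. Between 0.64 and 0.064 kBq 9 of the 13 fell over all 18 arrays, against 4.96% of all probes called, while no probe at all was called within set 2. Over all 18 arrays Nsdhl fell by 2.16, Sqle by 1.54, Mvd by 1.43 and Cyp51 by 1.34. Of 10 tested fatty acid oxidation genes at 1.8 kBq, Fgf21, a fasting hormone of the liver, rose by 1.08 and Cpt2, a carnitine palmitoyltransferase, fell by 0.63. Within set 1, where 14.7% of all probes were called, 2 rose and 6 fell. Acadvl, an acyl-CoA dehydrogenase, rose by 0.44 between 0.064 and 0.64 kBq over all 18 arrays, and Nr1h3 of the regulators by 0.95.

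The liver genes whose pattern over the 12 arrays of set 1 was most like the mean of the 8 genes, each centred, were Per2, Ntrk2, Slc25a15, Sec14l4, Aco1 and Hspa9, with Pearson r from 0.927 to 0.959. The points share arrays and normalisation, and r describes likeness only. Of the members, Fasn (r = 0.91) and Srebf1 (r = 0.90) lay nearest to that mean, which they help to form, and Scd1 ran against it (r = -0.42). At 1.8 kBq Ntrk2, a neurotrophin receptor gene, differed from controls by -2.15 and Per2, a core clock gene, by -1.08 (adjusted p = 0.0576).

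In lung the mean of each of the 8 genes was higher at 1.8 kBq than in controls, and Elovl6 was higher at all 3 activities. Over all 18 arrays no gene passed in limma at 1.8, 14 or 42 kBq (3, 0 and 1 had an unadjusted p under 0.05), where 0.374%, 0.43% and 0.679% of all probes were called. Within set 1, 5 of 8 genes rose at 1.8 kBq, 1 at 14 kBq and 4 at 42 kBq, against 4.02%, 5.98% and 2.27% of all probes, and none fell. Elovl6 was 6.70, 6.09 and 6.38 in control lung, 7.78, 7.84 and 7.82 at 1.8 kBq, 7.28, 7.42 and 7.46 at 14 kBq, then 7.27, 7.63 and 7.62 at 42 kBq. Every injected array of set 1 lay above every control array. Within set 1 the rise was 1.43, or 2.69-fold, at 1.8 kBq (adjusted p = 3.7e-06), 1.00 at 14 kBq (adjusted p = 0.000293) and 1.12 at 42 kBq (adjusted p = 5.06e-05). Fasn rose by 0.96 at 1.8 kBq (adjusted p = 0.0186), with 6.30, 6.40 and 6.40 against 4.87, 5.62 and 5.74, the first of which was not above background, so that 2 of 3 control arrays measured it. Mlxipl rose by 0.75 at both 1.8 and 42 kBq, Scd1 by 0.47 and 0.39, and Acaca by 0.46 and 0.50. Srebf1, by contrast, overlapped the controls at 1.8 and 42 kBq, with differences of 0.07 and 0.08 within set 1. In the deposited processed table, over all 18 arrays, the lung differences were smaller: 0.72, 0.46 and 0.53 for Elovl6 at 1.8, 14 and 42 kBq, 0.25 for Fasn at 1.8 kBq, and 0.21 and 0.20 for Mlxipl at 1.8 and 42 kBq.

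Markers of other cell types moved with these lung values. B cell genes had a mean of 7.15 to 7.26 at 1.8 kBq against 6.68 to 6.76 in controls, and 4 of 6 tested rose within set 1. At 42 kBq the B cell mean was 6.53 to 6.57, below the controls. Hepatocyte-list genes had a mean of 5.12 to 5.19 against 4.86 to 4.92, with 1 to 3 of 10 detected at 1.8 kBq. The mean of the 10 fat cell genes lay at 5.29 or below on control lung arrays. It ranged from 6.12 to 6.21 for 1.8 kBq, from 5.74 to 5.85 for 14 kBq and from 6.02 to 6.06 for 42 kBq. Within set 1, 5, 3 and 5 of 6 tested fat cell genes rose at 1.8, 14 and 42 kBq, and 0 did over all 18 arrays. Adipoq, adiponectin, was 5.51, 5.52 and 5.81 in controls, 8.80, 8.60 and 8.73 at 1.8 kBq, 7.67, 7.85 and 7.96 at 14 kBq, then 8.15, 7.55 and 7.94 at 42 kBq, with no injected array of set 1 in the control range. Plin1 of the same list was 4.53, 4.41 and 4.63 at 14 kBq against 4.94, 4.67 and 4.62 in controls, detected on none of these arrays. Ucp1 was detected on no set 1 lung array. On the lung array of 0.64 kBq with a fat cell mean of 8.74, Elovl6 was 10.93, Scd1 14.71 and Fasn 8.30, each the highest of the 18 lung arrays. The part of fat tissue or other cell types in the lung changes was not tested. Between 0.64 and 0.064 kBq limma called no gene in lung (5 had an unadjusted p under 0.05, and 0.162% of probes were called) and 1 without array 3 of 0.64 kBq.

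In kidney cortex Srebf1 was lower at all 3 activities and Scd1 changed direction between them. Over all 18 arrays no gene passed in limma at 1.8, 14 or 42 kBq (1, 1 and 2 had an unadjusted p under 0.05), where 2%, 0.119% and 1.7% of all probes were called. Within set 1, 4, 2 and 2 of 7 tested genes were called, against 9.02%, 2.76% and 5.58% of all probes. Scd1 was 9.92, 10.15 and 10.09 in controls, 9.27, 9.08 and 9.38 at 1.8 kBq, 10.40, 10.29 and 10.43 at 14 kBq, then 12.27, 11.93 and 12.01 at 42 kBq. Scd1 lay below the controls at 1.8 kBq and above them at 42 kBq with no overlap. Within set 1 it fell by 0.82 at 1.8 kBq (adjusted p = 9.39e-05) and rose by 2.05, or 4.15-fold, at 42 kBq (adjusted p = 1.02e-09). Over all 18 arrays its spread also takes in set 2, where Scd1 was 8.93 to 14.40 at 0.064 kBq (SD 2.99, n = 3).

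Srebf1 in cortex was 6.81, 7.46 and 7.26 in controls, 6.44, 6.40 and 6.34 at 1.8 kBq, 6.46, 6.25 and 6.57 at 14 kBq, then 6.41, 6.04 and 6.73 at 42 kBq. No injected array of set 1 reached the lowest control array. Within set 1 it fell by 0.78 (adjusted p = 0.0168), 0.75 (adjusted p = 0.0454) and 0.79 (adjusted p = 0.0213). Acaca fell by 0.71 at 1.8 kBq (adjusted p = 0.000699) and by 0.67 at 14 kBq (adjusted p = 0.00272), and Acly by 0.32 at 1.8 kBq. The fat cell mean in cortex was 5.13 to 5.44 in controls, 4.59 to 4.68 at 1.8 kBq, 4.79 to 4.90 at 14 kBq and 5.38 to 5.48 at 42 kBq. At 42 kBq, where Scd1 rose, that mean overlapped the controls, while at 1.8 kBq it was below them. Within set 1, 2 of 7 tested fat cell genes rose at 42 kBq and 0 fell. Ucp1, the uncoupling protein of brown fat, was 6.36, 6.37 and 6.27 at 42 kBq against 4.36, 5.08 and 4.51 in controls, 1 of which was detected. Adipoq of the same list went the other way, with 6.95, 6.59 and 7.02 at 42 kBq against 7.07, 7.17 and 7.14 in controls. Hepatocyte-list genes also moved in cortex, with a mean of 6.57 to 6.82 at 1.8 kBq against 6.12 to 6.22 in controls, and 4 of 6 tested rose in both fits. The part of fat tissue or other cell types in these cortex changes was not tested. In the deposited processed table the Srebf1 differences were -0.39, -0.37 and -0.38 at 1.8, 14 and 42 kBq. On the cortex array of 0.064 kBq with a fat cell mean of 9.21, Scd1 was 14.40, Acaca 12.92 and Fasn 8.70. Between 0.64 and 0.064 kBq limma called none in cortex (1 had an unadjusted p under 0.05, and 0.106% of probes were called) and 1 without that array.

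In kidney medulla Elovl6 fell at 1.8 kBq, the one member called over all 18 arrays in a tissue other than liver, at an activity where 26.6% of all medulla probes were called. Its values were 10.74, 10.92 and 10.64 in controls and 9.91, 9.88 and 9.61 at 1.8 kBq, without overlap, and 10.97, 10.98 and 10.89 at 14 kBq. The fall was 0.97 ± 0.10 (SE), or 1.96-fold (adjusted p = 2.26e-07). Within set 1, where 33.4% of probes were called at 1.8 kBq, Gpam fell by 0.76 and Srebf1 by 0.45, while Acaca rose by 0.79 (adjusted p = 1.62e-06) and Mlxipl by 0.32. The fat cell mean in medulla was 4.65 to 4.79 in controls and 5.64 to 5.77 at 1.8 kBq, so that fat cell genes were higher where Elovl6 was lower and Acaca higher. Proximal tubule genes had a mean of 10.09 to 10.15 at 1.8 kBq against 10.38 to 10.45 in controls, and 2 of 6 tested fell over all 18 arrays and 3 within set 1. Collecting duct and loop genes had a mean of 11.24 to 11.29 against 11.07 to 11.12. Of 4 tested hepatocyte-list genes 2 rose and 1 fell in both fits. On the medulla arrays of 0.064 kBq, with fat cell means of 7.20 to 7.71, Acaca was 10.60, 10.74 and 11.13, and the part of fat tissue or other cell types in the medulla changes was not tested. In the deposited processed table Gpam differed by -0.27 and Srebf1 by -0.22 at 1.8 kBq, and Srebf1 by -0.26 at 42 kBq, while median centring put Mlxipl at 0.18 at 1.8 kBq. Over all 18 arrays no gene passed in limma at 14 or 42 kBq (1 and 2 had an unadjusted p under 0.05, with 0.438% and 5.05% of probes called). Within set 1 none passed at 14 kBq (3 had an unadjusted p under 0.05, and 2.54% of probes were called), and Srebf1 fell by 0.54 at 42 kBq (adjusted p = 0.0492), against 10.5% of probes. Between 0.64 and 0.064 kBq none was called by limma (3 had an unadjusted p under 0.05, and 1.16% of probes were called), and 2 were without array 1 of 0.64 kBq.

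**Figure D4:**
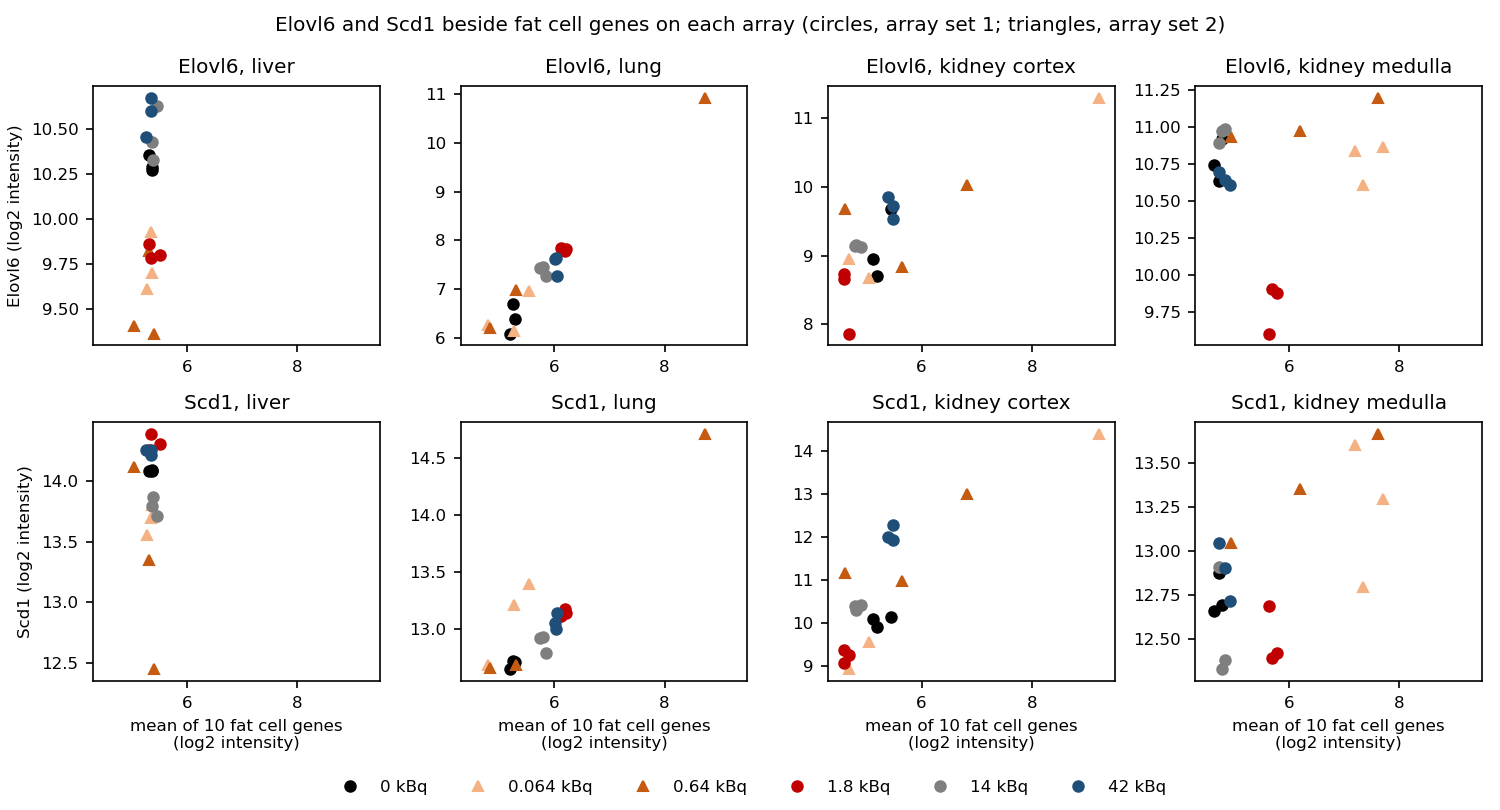
Log2 intensity of Elovl6 (upper row) and Scd1 (lower row) on each array against the mean log2 intensity of 10 fat cell genes on the same array, in liver, lung, kidney cortex and kidney medulla; colours give the injected activity, circles set 1 and triangles set 2. The liver arrays stay between 5.04 and 5.51 on the horizontal axis, the lung arrays of set 1 spread along both axes, and the medulla arrays of 1.8 kBq have higher fat cell means and lower Elovl6 than the controls.

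In spleen limma called no gene over all 18 arrays at 1.8, 14 or 42 kBq (3, 1 and 3 had an unadjusted p under 0.05), where 2.8%, 3.3% and 0.529% of probes were called. Fasn, Mlxipl and Gpam were near background there, detected on 5, 4 and 6 of 18 arrays. Within set 1, Elovl6 and Acaca fell at 1.8 kBq, 2 of 6 tested genes against 8.87% of probes, by 0.78 (adjusted p = 0.00763) and 0.39 (adjusted p = 0.0252). Elovl6 also fell at 42 kBq, by 0.71 (adjusted p = 0.045), against 1.79% of probes, with 6.12, 6.30 and 5.85 against 6.90, 6.86 and 6.64 in controls. None passed at 14 kBq (2 had an unadjusted p under 0.05, and 11.4% of probes were called). Exocrine pancreas genes moved with these groups, with a list mean of 5.03 to 5.08 in control spleen and 14.1 at 1.8 kBq, 9.90 to 9.98 at 14 kBq and at least 12.91 at 42 kBq. All 11 of those genes were detected on each of these injected arrays. The fat cell mean was 5.07 to 5.23 in control spleen and 4.60 to 4.71 at 1.8 kBq. Hepatocyte-list genes had a mean of 4.96 to 5.06 at 1.8 kBq against 5.61 to 5.64 in controls, and within set 1 5 of 6 tested fell at 1.8 kBq and 4 of 6 at 42 kBq, with 1 of 6 at each over all 18 arrays. The part of other tissues in the spleen values was not tested. In the deposited processed table Elovl6 differed by -0.35 at 1.8 kBq and -0.33 at 42 kBq. Between 0.64 and 0.064 kBq none was called by limma (0 had an unadjusted p under 0.05, and 1.3% of all probes were called).

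Whether the liver change differed from the mean change of the other tissues was tested in 1 fit of all tissues. Over 90 arrays no gene passed in limma at 1.8, 14 or 42 kBq, where 4.91%, 1.52% and 3.4% of probes were called. Unadjusted p-values were under 0.05 for 2, 0 and 1 of the 8 genes; Srebf1 differed by -0.83 at 1.8 kBq (adjusted p = 0.101) and Fasn by -1.17 (adjusted p = 0.152). Over the 60 arrays of set 1, 4 of 8 genes passed at 1.8 kBq against 10.1% of probes: Fasn by -1.15 ± 0.19 (SE) (adjusted p = 1.88e-05), Srebf1 by -0.85 ± 0.18 (SE) (adjusted p = 0.000938), Mlxipl by -0.47 and Scd1 by 0.46. At 42 kBq 3 genes passed against 8.78% of probes, Fasn by -0.66, Mlxipl by -0.54 and Scd1 by -0.41. Scd1 was not lower in liver there, differing from controls by 0.16 in the joint normalisation of 90 arrays. In cortex its difference was 1.97, in lung 0.46, in medulla 0.14 and in spleen -0.34. Fasn at 1.8 kBq differed by -0.92 in liver, 0.78 in lung and 0.25 in the mean of the other tissues. At 14 kBq limma called none (1 had an unadjusted p under 0.05), against 3.99% of probes. The Srebf1 difference there was -0.05, with a 95% interval from -0.41 to 0.32. Fasn was detected on 5 of 18 arrays in each of spleen, cortex and medulla, and Mlxipl on 4 of 18 in spleen. A fall of a probe near background could not be measured there, so the Fasn differences, and in part those of Mlxipl, rest on tissues that could show little or no fall.

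A test of whether the change differed in any way among the 5 tissues was added after the data had been seen. Over 90 arrays it called Elovl6 at 1.8 kBq (adjusted p = 0.021), 1 of 8 genes against 16.2% of probes, and none at 14 or 42 kBq (0 and 2 had an unadjusted p under 0.05), against 3.36% and 4.4%. Over the 60 arrays of set 1 it called 7 genes at 1.8 kBq, all tested but Gpam, 4 at 14 kBq and 5 at 42 kBq, against 30%, 13.9% and 12.7% of probes. In the joint normalisation Elovl6 at 1.8 kBq differed from its control by -0.40 in liver, -0.78 in spleen, -0.68 in cortex, -0.99 in medulla and 1.44 in lung. Srebf1 was lower in liver, spleen, cortex and medulla at each of the 3 activities, with differences of -1.25 to -0.45, and in lung differed by 0.07, -0.33 and 0.09 at 1.8, 14 and 42 kBq. Within single tissues it was called in neither fit in spleen at any activity, nor in medulla at 14 kBq. The 3 activities of a tissue share the same 0 kBq arrays. Scd1 at 42 kBq differed by 1.97 in cortex and -0.34 in spleen. Acaca at 1.8 kBq differed by 0.81 in medulla and -0.67 in cortex.

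**Figure D5:**
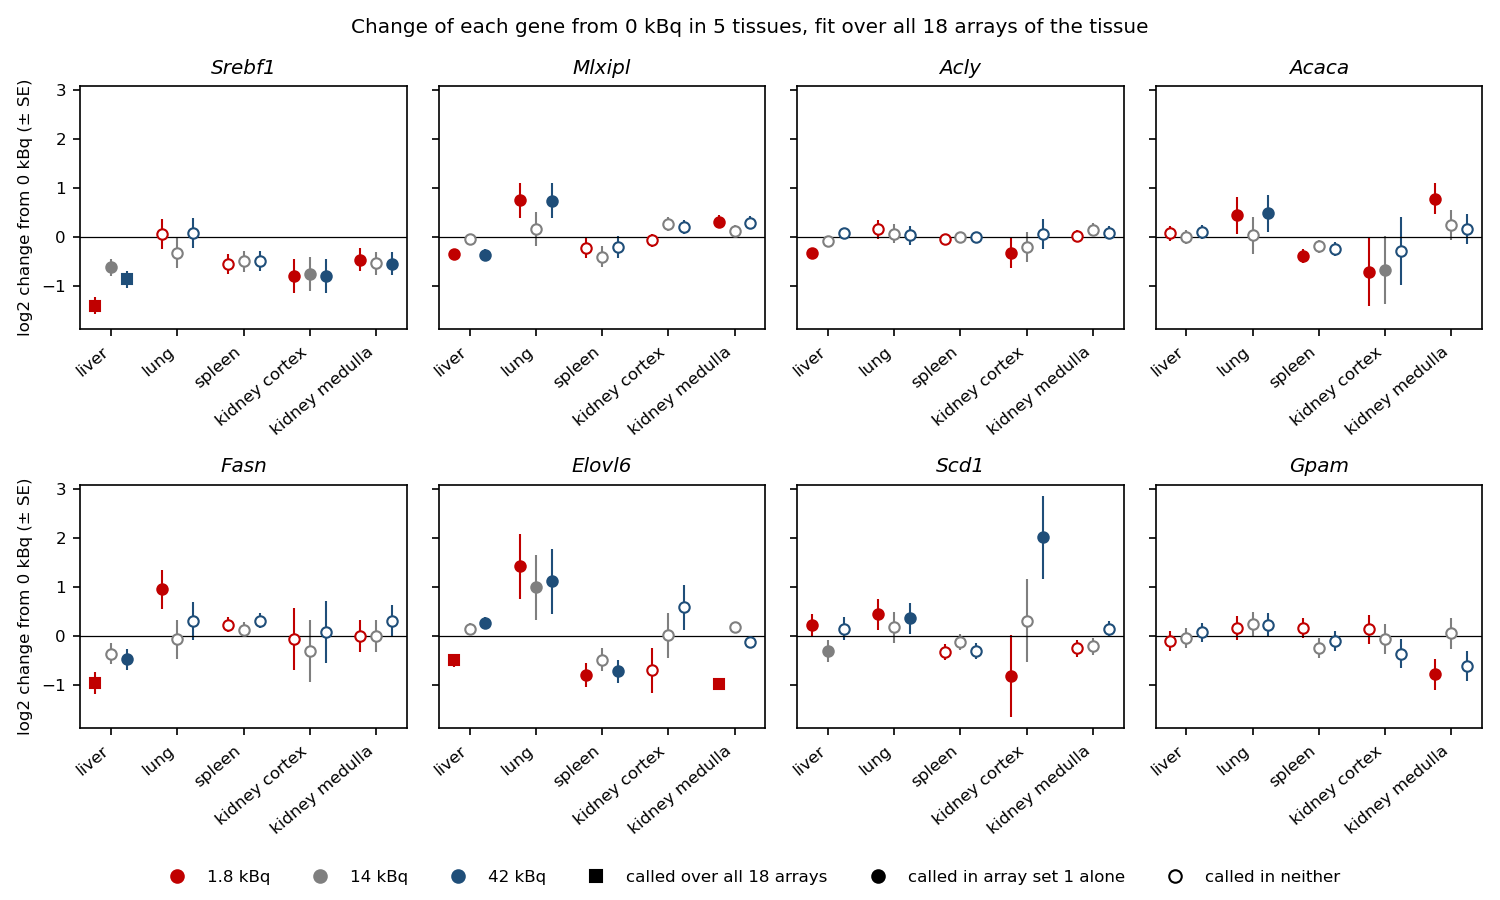
Log2 change of each gene from 0 kBq (vertical axes, with SE, from the fit over all 18 arrays) in 5 tissues at 1.8, 14 and 42 kBq; squares were called over all 18 arrays, filled circles within set 1 alone, and open circles in neither. Srebf1 is lower in liver, spleen, cortex and medulla at all 3 activities, though called in neither fit in spleen. Elovl6 is higher in lung, and Scd1 in cortex at 42 kBq has the largest change drawn.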

How the data were processed

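Single-colour Illumina bead arrays measured total RNA of 5 mouse tissues on 90 arrays. The deposited table holds an intensity per probe and array, and the authors deposited a detection p-value beside each. A second deposited table holds processed intensity values on a linear scale with a floor of 16, whose normalisation is not given in the sources used here; it served as an alternative. Both array sets were read from the grid of the values (99.53% of set 1 values and 99.32% of set 2 values lay within 0.01 of a unit of their set's grid). Set 1 holds all 0 kBq arrays, so a difference between sets cannot be told apart from one of activity.

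Within each tissue, intensities were background-corrected with normexp from the detection p-values (offset 16), taken to log2 and quantile normalised, in limma 3.58.1 (R 4.3.3). Probes detected (detection p under 0.05) on at least 3 arrays were kept, 13673 in liver and 15063 to 16048 elsewhere. One mean per group was fitted with a variance trend, with Benjamini-Hochberg adjustment over all probes. The steps were tested on simulated data with independent noise of the same spread in every group. They could therefore not test unequal spreads between groups, or arrays of the same number deviating together. Tissues were compared after normalising all arrays together. Alternatives were the fit within an array set, median centring, the deposited table, other filters and offsets, no trend, a replicate block and leaving out each array. The number of arrays limits the precision. The members and gene lists were chosen with earlier results of these data known. Liver genes named for likeness were the 6 with the highest r to the member mean. All members are named. Of each list up to 4 called genes with the largest change per liver comparison are named, while Dgat2, Srebf2, Adipoq, Plin1 and Ucp1, Nr1h3 at 1.8 kBq, and values of Aacs and Thrsp where not called, were chosen after their values were seen. Where a gene has several probes, the one with the highest mean stands for it.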

Additional observations from a re-analysis of the deposited data

Results flagged for a closer look

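Whether a change from 0 kBq differed between tissues depended on the fit. In the test among 5 tissues at 1.8 kBq, 7 of 8 genes passed over its 60 arrays, where 30% of all probes did, and 1 over 90 arrays, where 16.2% did. At 14 and 42 kBq limma called none over 90 arrays (0 and 2 had an unadjusted p under 0.05). Over the 60 arrays of set 1, the change in liver minus the mean change in the other tissues was, at 1.8 kBq, 0.46 for Scd1, -0.47 for Mlxipl, -0.85 for Srebf1 and -1.15 for Fasn. At 42 kBq it was -0.41 for Scd1, -0.54 for Mlxipl and -0.66 for Fasn. Scd1 at 42 kBq differed from controls by 0.16 in liver and by 1.97 in cortex in the joint normalisation of 90 arrays. Fasn was detected on 5 of 18 arrays in each of spleen, cortex and medulla, and Mlxipl on 4 of 18 in spleen. The Fasn and Mlxipl differences thus rest in part on tissues where a fall could not be measured.

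The test among all 5 tissues was added after the data had been seen. Over 90 arrays it passed for Elovl6 at 1.8 kBq (adjusted p = 0.021, limma). Over the 60 arrays of set 1 the limma adjusted p-values at 1.8 kBq were 4.12e-09 for Scd1, 0.00605 for Acly, 8.37e-13 for Acaca, 1.49e-12 for Elovl6, 5.3e-05 for Mlxipl, 0.000239 for Srebf1 and 1.02e-05 for Fasn. At 14 kBq they were 0.00337 for Scd1, 5.06e-05 for Acaca, 0.00012 for Elovl6 and 0.0349 for Mlxipl. At 42 kBq they were 3.68e-17 for Scd1, 3.35e-05 for Acaca, 1.55e-07 for Elovl6, 0.000191 for Mlxipl and 0.0336 for Srebf1. Fat cell genes in lung, cortex and medulla and pancreas genes in spleen moved between the same groups, and their part was not tested.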

How the results depend on the processing

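No result changed direction among the alternatives run while called. Within its own array set, each comparison with 0 kBq called more genes than over all 18 arrays, except 14 kBq in spleen and medulla, with 0 in both fits. The counts within set 1 in liver were 6 at 1.8 kBq, 2 at 14 kBq, 4 at 42 kBq, 6 for 14 against 1.8 kBq, 4 for 42 against 1.8 kBq and 2 for 42 against 14 kBq, and 0 within set 2 for 0.64 against 0.064 kBq. At 1.8, 14 and 42 kBq they were 5, 1 and 4 in lung and 4, 2 and 2 in cortex. At 1.8 and 42 kBq they were 2 and 1 in spleen and 5 and 1 in medulla. With the 60 arrays of set 1, 4 and 3 genes differed between liver and the other tissues at 1.8 and 42 kBq, and 7, 4 and 5 among the 5 tissues at 1.8, 14 and 42 kBq.

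Median centring gave 0 in liver at 42 kBq, 0 for 0.64 against 0.064 kBq, 4 for 14 against 1.8 kBq and 1 for 42 against 1.8 kBq, and in medulla 2 at 1.8 kBq and 2 for 0.64 against 0.064 kBq. For 0.64 against 0.064 kBq in liver, the deposited table, no detection filter and no variance trend each gave 1, and no trend gave 1 for 42 against 1.8 kBq. Leaving out each array gave 1 to 2 in liver at 1.8 kBq, 0 to 2 for 0.64 against 0.064 kBq, 1 to 2 for 14 against 1.8 kBq and 1 to 2 for 42 against 1.8 kBq. It gave 0 to 1 in lung and cortex and 0 to 2 in medulla for 0.64 against 0.064 kBq, and 1 to 2 in medulla at 1.8 kBq. For these settings, the replicate block below and the arrays left out above, the share of all probes called is not given. These counts therefore describe the members only and cannot be set against the rate over all probes.

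The labels number the arrays of each group 1 to 3. With the number as a replicate block, 1 gene was called in spleen at 1.8 kBq and no other count moved by over 1.5 times. Arrays of the same number deviated together in part (16 of 18 pairs correlated over 0.1 in spleen and cortex, 12 in liver and medulla and 4 in lung, and all 12 arrays of set 1 correlated best with their own number in spleen, cortex and medulla, 11 in liver and 5 in lung), a hint from the data and not the design. Over 14 alternatives in liver at 1.8 kBq, Srebf1 kept its call in 14, from -1.74 to -1.05, Fasn lost it in 4 and Elovl6 in 8. The causes were not tested. Probes near background, Fasn in spleen and kidney and Mlxipl and Gpam in spleen, allow no fold.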
